A study of Nicotiana benthamiana with 6 samples.

Results

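The AP2/ERF family of transcription factors was followed in *Nicotiana benthamiana* leaves. Its members were the unigenes (assembled transcripts, named here by contig) annotated with the AP2 DNA-binding domain (Pfam entry PF00847) and with a best protein match in *Nicotiana* or *Solanum*. This gave 133 members among 167935 unigenes. The MaWRKY45-OE group consisted of 3 libraries of wild-type leaves that received *Agrobacterium tumefaciens* LBA4404 with pCAMBIA2200::*MaWRKY45*, the coding sequence of a banana WRKY factor under the CaMV 35S promoter. The mock group consisted of 3 libraries of leaves infiltrated with the same bacterium and the empty vector. Both groups were harvested 3 days after infiltration, and each library held the pooled RNA of 3 plants. Expression was transient, both groups had received the bacterium, and leaves without infiltration were not analysed here.

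AP2/ERF proteins share a plant DNA-binding domain of the same name. ERF proteins typically bind the GCC box found upstream of many pathogenesis-related genes, and DREB proteins bind the dehydration-responsive element of drought and cold genes. Many ERF genes are induced by ethylene, jasmonate, wounding or pathogens, and a subset carries the EAR motif, through which target genes are repressed. AP2 subfamily proteins carry a doubled domain and act mainly in development, while CRF proteins respond to cytokinin and group VII ERFs to low oxygen.

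The libraries held between 12031310 and 14285138 counted read pairs. A unigene matched to a banana WRKY protein (c147189_g1_i1) had 3133, 4527 and 3615 counts in MaWRKY45-OE libraries, against 1617, 781 and 1455 counts in mock libraries. It was higher in MaWRKY45-OE (log2 fold change 1.46 ± 0.29 SE, edgeR adjusted p = 0.0181) but was not absent from the mock, and whether it is the transgene was not tested. Unigenes annotated as chlorophyll a-b binding proteins, the mesophyll markers, numbered 34. In CPM (counts relative to library size, after TMM scaling between libraries), they summed to 4488, 3171 and 2885 CPM in MaWRKY45-OE, against 8023, 16516 and 4784 CPM in mock libraries. Mock replicate 2 was thus far above the other mock libraries. Of 21 tested, 5 were lower (23.8%, beside 2.67% of all tested unigenes). All 5 calls were lost when MaWRKY45-OE replicate 2 or mock replicate 1 was left out. Estimates were below 0 for 18 of these 21 and above 0 for 3, with a median log2 fold change of -1.43. The single RuBisCO small chain unigene was below 3 CPM in every library. Unigenes matched to yeasts summed to between 33.4 and 111 CPM in MaWRKY45-OE, against 742 to 1085 CPM in mock libraries, and those with an *Escherichia coli* nucleotide match to between 199 and 286 CPM, against 18.8 to 33.6 CPM. With both sets left out of the fit, the same 4 members were called higher and the same 8 lower. That fit only dropped the matched unigenes, so it cannot show whether such organisms in the leaves affected the members. Any such effect was not tested and cannot be told apart from that of the construct, because both sets differed between the groups. The part of the mesophyll difference in the results was not tested, and fewer cells of a type and less RNA per cell cannot be told apart in these leaves.

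Of the 133 members, 91 passed the expression filter and were tested. The other 42 had between 0 and 146 counts over the 6 libraries (median 19), and 1 of them had none. Unigenes that could be tested were longer, with a median of 1303 bases against 609 bases for the rest. A unigene was called when edgeR's quasi-likelihood test gave an adjusted p under 0.05 over all 37201 tested unigenes and the groups differed at least 2-fold. Of the 91 members, 4 were higher in MaWRKY45-OE (4.40%) and 8 were lower (8.79%), and 79 were not called. Over all tested unigenes, 1.92% were called higher, 2.67% lower and 4.59% in either direction, against 13.2% of the members. The 6 libraries of 34 members did not overlap between groups, 14 of them higher and 20 lower in MaWRKY45-OE. Over all tested unigenes 22.9% did not overlap, 11.3% being higher and 11.5% lower. The median log2 fold change was -0.23 over the members and -0.01 over all tested unigenes. Replicates of the tested members varied with a median coefficient of variation of 24.4% in MaWRKY45-OE and 26.8% in mock libraries.

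The deposited gene ontology terms gave 114 of the 133 members to ethylene-activated signalling. Defence response was given to 22, of which 16 were tested, 3 were higher and 3 lower. Response to chitin was given to 28, of which 19 were tested, 1 was higher and 2 were lower, and jasmonate-mediated signalling to 7, of which 4 were tested, 2 were higher and none was lower. Over all tested unigenes 1.92% were called higher and 2.67% lower, and the terms were not tested against these shares.

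**Figure D1:**
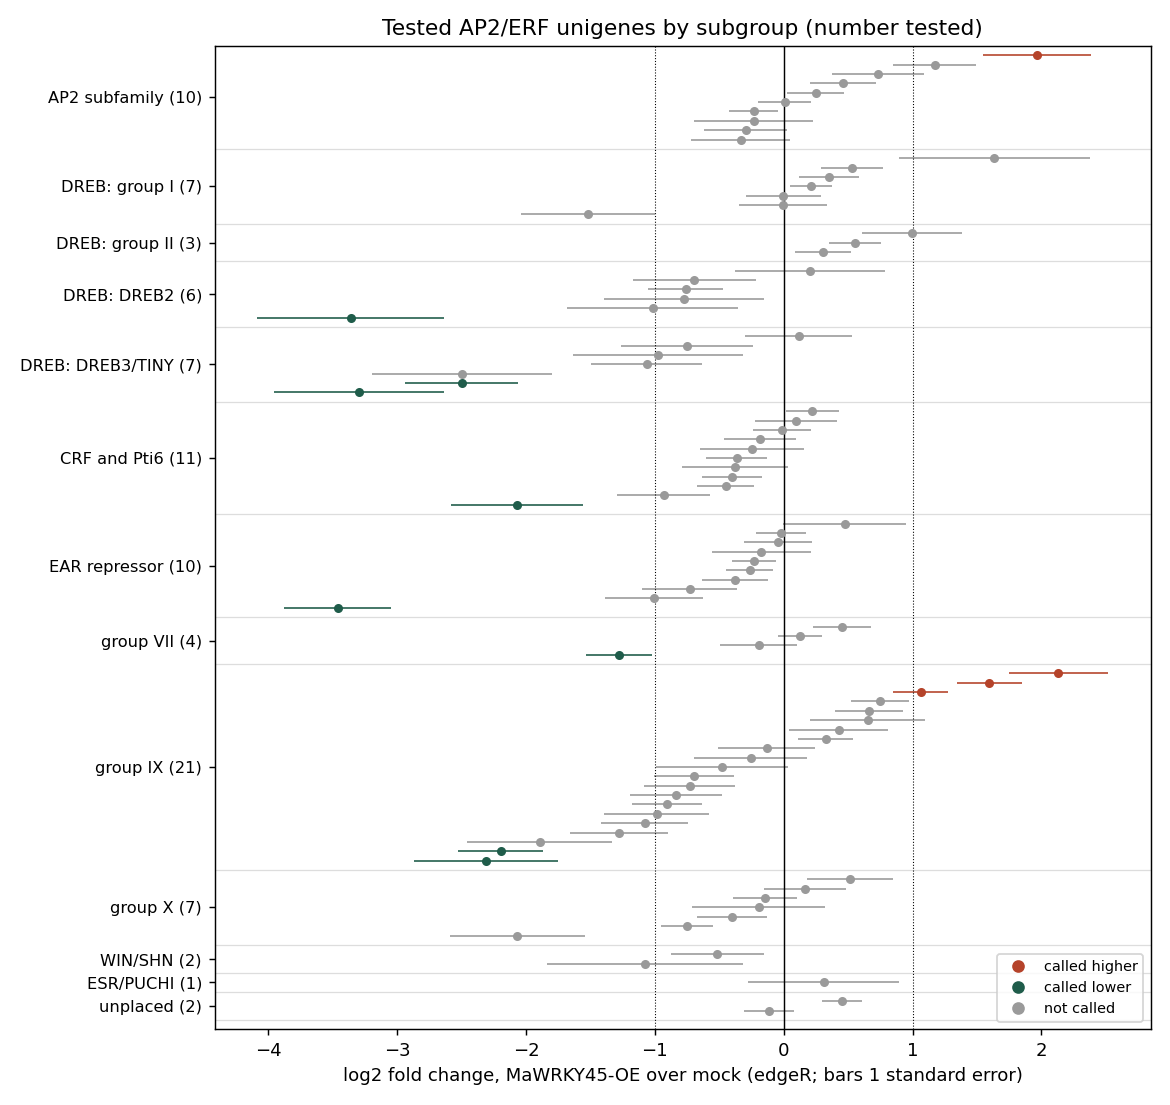
Log2 fold change of MaWRKY45-OE over mock (horizontal axis, edgeR estimate, bars 1 standard error) for each of the 91 tested members, grouped by subgroup with the number tested. The 4 members called higher lie in group IX and the AP2 subfamily, and the 8 called lower are spread over DREB, CRF, EAR, group VII and group IX members. Dotted lines mark the 2-fold limits.

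Levels differed widely among the members. Per kb of unigene, the mean over 6 libraries was at least 10 CPM for 29 tested members and under 2 CPM for another 29, with a median of 3.81 CPM per kb. The 5 highest members held 38.0% of the summed level. These were ERF1 (c82438_g1_i1), PTI5-like (c82068_g1_i1), RAP2-4-like (c97653_g2_i2), RAP2-12-like (c90916_g1_i1) and ERF3 (c88285_g2_i1), but their order differed between the groups. In MaWRKY45-OE, ERF1 came first with 186 ± 15.2 CPM per kb (SD, n = 3) and did not overlap the next member, RAP2-4-like, with 68.3 ± 5.99 CPM per kb. RAP2-12-like (59.9 ± 6.47 CPM per kb) and PTI5-like (54.9 ± 5.45 CPM per kb) followed. Neighbours from RAP2-4-like to PTI5-like overlapped over their libraries, while ERF3 (42.4 ± 3.55 CPM per kb) lay below PTI5-like without overlap.

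In mock libraries, PTI5-like had the highest mean (103 ± 38.4 CPM per kb, SD, n = 3) and ERF1 the next (89.3 ± 23.5 CPM per kb), and both overlapped. RAP2-4-like (59.0 ± 1.49 CPM per kb) lay below ERF1 without overlap. It overlapped RAP2-12-like (54.9 ± 5.08 CPM per kb), which in turn overlapped ERF3 (49.8 ± 5.20 CPM per kb). Of these 5, only ERF1 was called between the groups.

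**Figure D2:**
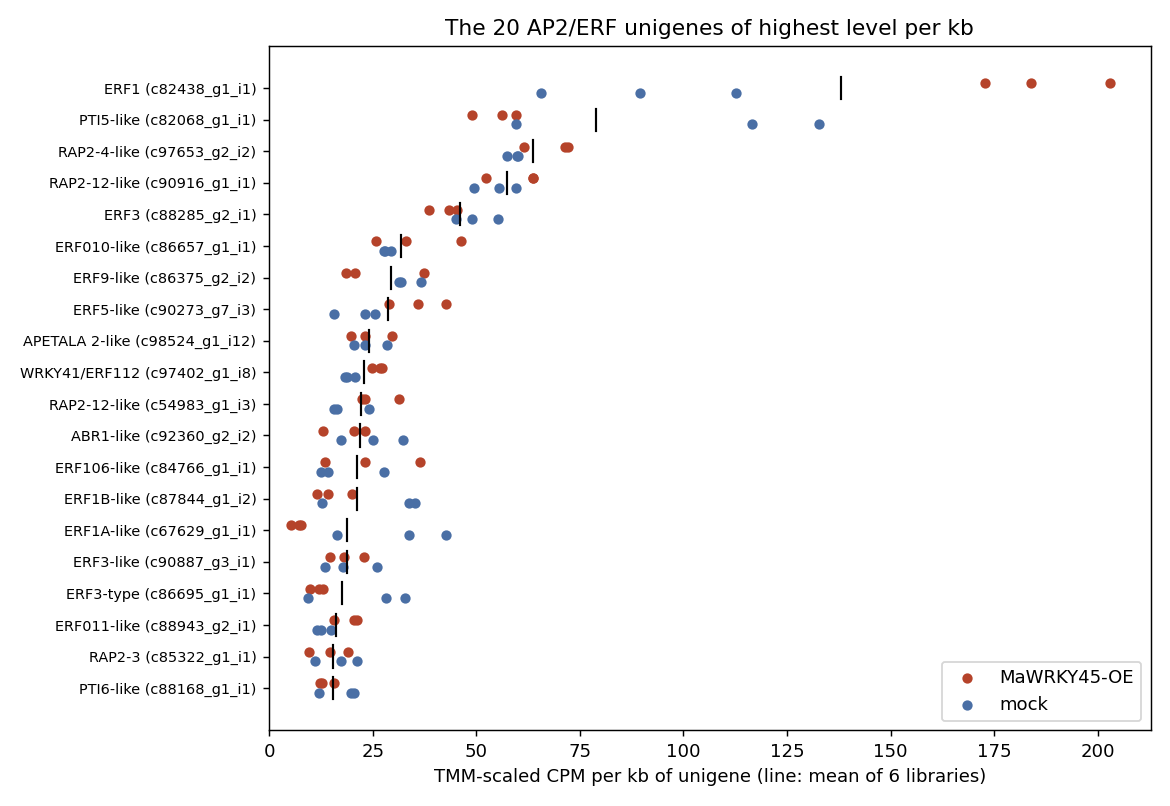
Level of the 20 highest members in TMM-scaled CPM per kb of unigene (horizontal axis), with MaWRKY45-OE libraries above mock libraries in each row and a line at the mean of 6 libraries. ERF1 lies at 173 to 203 CPM per kb in MaWRKY45-OE and at 65.7 to 113 in mock, while PTI5-like lies at 49.0 to 59.6 in MaWRKY45-OE and at 59.5 to 133 in mock.

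Group IX holds the activators ERF1, ERF2, ERF5 and Pti5, several of which are known to bind the GCC box of defence genes. It was the largest ERF group, with 29 members, of which 21 were tested, 3 were higher (14.3%) and 2 were lower (9.52%) in MaWRKY45-OE. Over all tested unigenes these shares were 1.92% and 2.67%. The median log2 fold change of group IX was -0.48, with 8 estimates above 0 and 13 below 0. Its summed level was 484, 491 and 515 CPM in MaWRKY45-OE libraries, against 522, 313 and 556 CPM in mock libraries. The groups overlapped because mock replicate 2 was lower than every other library, and 15 of the 21 tested members had their lowest mock value there.

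ERF1 (c82438_g1_i1) had 221, 201 and 188 CPM in MaWRKY45-OE, against 97.8, 71.6 and 123 CPM in mock libraries. It was higher in all 3 MaWRKY45-OE libraries without overlap (log2 fold change 1.06 ± 0.22 SE, adjusted p = 0.0213). ERF1B-like (c85657_g1_i1) had 20.6, 17.4 and 12.2 CPM in MaWRKY45-OE, against 5.18, 5.06 and 6.37 CPM in mock libraries. The mock libraries lay close together and below every MaWRKY45-OE library (log2 fold change 1.59 ± 0.25 SE, adjusted p = 0.00702). ERF1B is known in *Arabidopsis* as a point where ethylene and jasmonate signals meet. The other ERF1B-like unigene that was higher (c87992_g3_i5) had 13.4, 13.0 and 5.09 CPM in MaWRKY45-OE, against 2.34, 2.83 and 1.98 CPM in mock libraries. Replicate 3 of MaWRKY45-OE was lower than the other two but still above all mock libraries (log2 fold change 2.13 ± 0.38 SE, adjusted p = 0.0126).

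Not every unigene of that name behaved alike. Of 6 members annotated ERF1B, 4 were tested and 2 were higher, while c87844_g1_i2 had an estimate of -0.84 ± 0.36 SE and c76972_g2_i1 one of -0.13 ± 0.38 SE (both chosen after their values were seen). In c87844_g1_i2, the MaWRKY45-OE libraries had 12.1, 15 and 20.9 CPM, against 35.6, 13.3 and 37.1 CPM in mock libraries, and only mock replicate 2 fell within the MaWRKY45-OE range. The 4 members annotated ERF5, known in *Arabidopsis* for chitin-induced defence, also spread over both sides of 0, between -1.28 and 0.75, and none was called. One of them (c95442_g7_i2) had 9.98, 13.3 and 21.5 CPM in MaWRKY45-OE, against 39.8, 18.6 and 36.4 CPM in mock libraries. MaWRKY45-OE replicate 3 and mock replicate 2 overlapped, and the call was made by DESeq2 but not by edgeR (log2 fold change -1.08 ± 0.34 SE).

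ERF1A-like (c67629_g1_i1), matched to a GCC-box activator of *Arabidopsis*, had 9.67, 7.25 and 10.5 CPM in MaWRKY45-OE, against 57.7, 22.3 and 45.7 CPM in mock libraries. Mock replicate 2 was the lowest mock library but still above every MaWRKY45-OE library (log2 fold change -2.20 ± 0.33 SE, adjusted p = 0.00571). ERF13-like (c100880_g1_i2) had 0.475, 0.586 and 0.221 CPM in MaWRKY45-OE, against 3.36, 1.04 and 2.07 CPM in mock libraries. The groups did not overlap, but its counts were low and its adjusted p lay just inside the threshold (log2 fold change -2.31 ± 0.56 SE, adjusted p = 0.0425). PTI5-like (c82068_g1_i1), whose tomato relative binds the resistance kinase Pto, had 62.9, 76.6 and 72.3 CPM in MaWRKY45-OE, against 150, 76.5 and 170 CPM in mock libraries. The groups overlapped at mock replicate 2, and the difference was not called (log2 fold change -0.90 ± 0.27 SE, adjusted p = 0.0899). Without that library PTI5-like was called, at -1.19 ± 0.17 SE with an adjusted p of 0.00254.

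**Figure D3:**
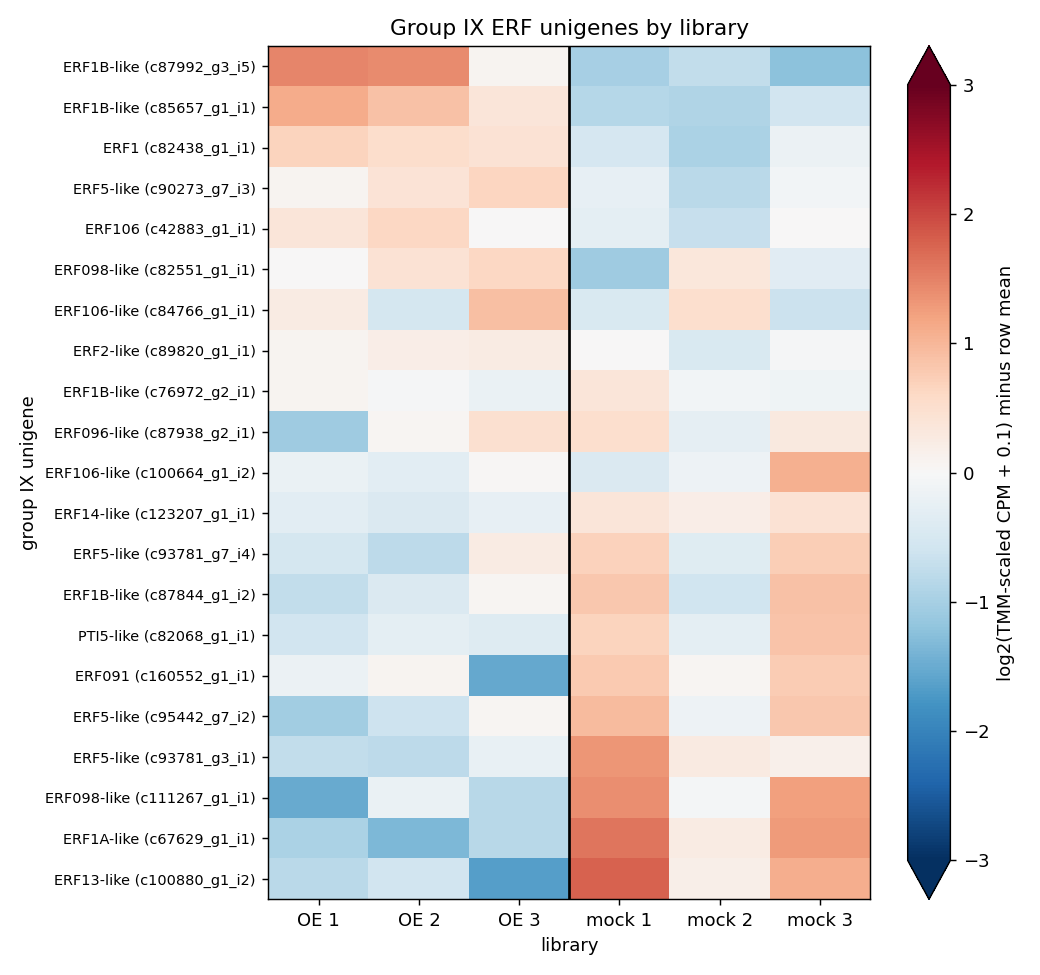
The 21 tested group IX members (rows, ordered by log2 fold change) in the 6 libraries (columns, MaWRKY45-OE on the left), coloured by log2(TMM-scaled CPM + 0.1) minus the row mean. The 3 uppermost rows are red to pale in MaWRKY45-OE and blue in mock. In the lower rows mock replicates 1 and 3 are red, while mock replicate 2 is paler in most of them, as in its sum of 313 CPM.

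The DREB subfamily had 36 members, of which 23 were tested. None was higher and 3 were lower (13.0%, beside 2.67% of all tested unigenes). The DREB classes had different medians. The DREB3/TINY class had a median log2 fold change of -1.06 over 7 tested members, with 6 estimates below 0 and 2 members lower. The DREB2 class had a median of -0.77 over 6 tested members, with 5 below 0 and 1 lower. Group I (RAP2-4 type, 7 tested) had a median of 0.21 and group II (3 tested) one of 0.55, and neither had a called member. The difference between classes was not tested.

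ERF039 (c91788_g2_i2) had 0.475, 0 and 0.959 CPM in MaWRKY45-OE, against 5.77, 4.39 and 4.13 CPM in mock libraries. All mock libraries were well above all MaWRKY45-OE libraries (log2 fold change -3.30 ± 0.66 SE, adjusted p = 0.0196). TINY-like (c82045_g3_i1) had 0.951, 1.03 and 0.443 CPM in MaWRKY45-OE, against 6.21, 2.90 and 4.67 CPM in mock libraries. It was lower without overlap (log2 fold change -2.50 ± 0.44 SE, adjusted p = 0.0110), and TINY is known in *Arabidopsis* to restrain growth when overexpressed. A further contig of the same assembly component, c82045_g2_i2, chosen after its values were seen, had a like estimate (-2.49 ± 0.70 SE) that was not called (adjusted p = 0.0725).

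DREB2A-like (c48900_g1_i1), whose *Arabidopsis* relative activates drought and heat genes, had 0.158, 0.293 and 0 CPM in MaWRKY45-OE, against 2.48, 0.968 and 1.44 CPM in mock libraries. It was lower in every MaWRKY45-OE library at very low counts (log2 fold change -3.36 ± 0.73 SE, adjusted p = 0.0270). A DREB1A-like unigene (c87641_g1_i1), chosen after its values were seen, did not pass the expression filter, which asks for a minimum count in enough libraries, with 1, 14 and 113 counts in MaWRKY45-OE, against 10, 2 and 6 counts in mock libraries. Its high value came from 1 library, MaWRKY45-OE replicate 3, and the groups overlapped.

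In group I, RAP2-4-like (c97653_g2_i2) had 148, 127 and 149 CPM in MaWRKY45-OE, against 124, 124 and 119 CPM in mock libraries. The groups did not overlap, but the difference was small and not called (log2 fold change 0.21 ± 0.16 SE, adjusted p = 0.561). The summed level of group I was 180, 163 and 177 CPM in MaWRKY45-OE, against 148, 152 and 139 CPM in mock libraries, most of it from that unigene.

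**Figure D4:**
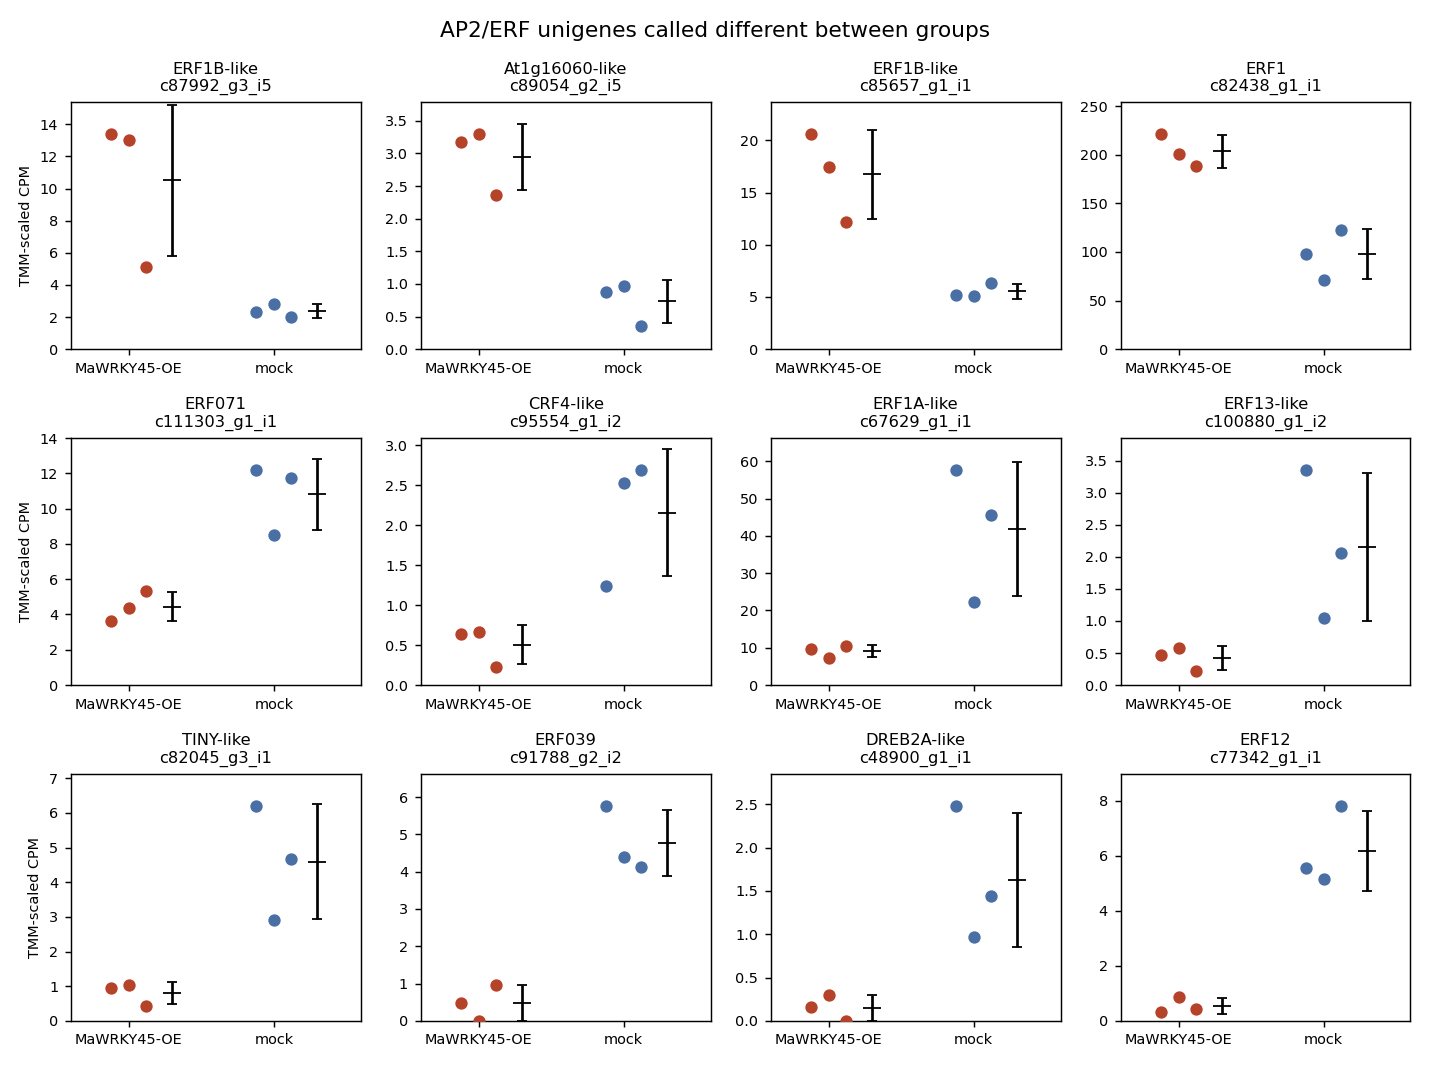
TMM-scaled CPM (vertical axes, each starting at 0) of the 12 called members in the MaWRKY45-OE and mock libraries, with points for libraries and black bars for the mean ± SD of 3. No panel has a MaWRKY45-OE library within the mock range. ERF1 at 188 to 221 CPM in MaWRKY45-OE is far above the scale of the others, several of which stay under 5 CPM in mock.

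The EAR repressors, which lower the transcription of GCC-box genes, had 13 members. Of 10 tested, none was higher, 1 was lower (10%, beside 2.67% of all tested unigenes), and 9 had estimates below 0 (median -0.25). ERF12 (c77342_g1_i1) had 0.317, 0.879 and 0.443 CPM in MaWRKY45-OE, against 5.55, 5.14 and 7.81 CPM in mock libraries. It had the lowest log2 fold change of all tested members (-3.46 ± 0.42 SE, adjusted p = 0.00245), and its groups lay far apart. ERF3 (c88285_g2_i1), an abundant repressor first described in tobacco, had 54.3, 51.9 and 46.0 CPM in MaWRKY45-OE, against 58.6, 53.8 and 66.2 CPM in mock libraries. Its groups overlapped slightly and it was not called (log2 fold change -0.23 ± 0.17 SE, adjusted p = 0.530).

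Cytokinin response factors and Pti6-type unigenes numbered 16, of which 11 were tested, with a median of -0.37. None was higher and 1 was lower (9.09%, beside 2.67% of all tested unigenes). CRF4-like (c95554_g1_i2) had 0.634, 0.659 and 0.221 CPM in MaWRKY45-OE, against 1.24, 2.53 and 2.69 CPM in mock libraries. The groups did not overlap, and the adjusted p lay just inside the threshold (log2 fold change -2.07 ± 0.51 SE, adjusted p = 0.0463). A CRF6-like unigene (c66846_g2_i1), also chosen after its values were seen, had no count in any MaWRKY45-OE library and 5, 2 and 1 counts in mock libraries, and did not pass the expression filter.

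Group VII ERFs are the oxygen-labile activators of low-oxygen genes. ERF071 (c111303_g1_i1), known in *Arabidopsis* as the hypoxia-responsive HRE2, had 3.64, 4.39 and 5.31 CPM in MaWRKY45-OE, against 12.2, 8.49 and 11.8 CPM in mock libraries. It was lower without overlap (log2 fold change -1.28 ± 0.26 SE, adjusted p = 0.0205). RAP2-12-like (c90916_g1_i1), the abundant group VII member, had 137, 137 and 112 CPM in MaWRKY45-OE, against 128, 106 and 119 CPM in mock libraries. These values overlapped (log2 fold change 0.13 ± 0.17 SE, adjusted p = 0.772), and neither of the other two tested group VII members was called.

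No member of group X, which holds ABR1 and ERF113, was called among 7 tested. ERF113-like (c97909_g12_i1) lay just outside the threshold, with 0.634, 0.732 and 0.443 CPM in MaWRKY45-OE, against 4.31, 1.27 and 2.07 CPM in mock libraries. The groups did not overlap (log2 fold change -2.07 ± 0.53 SE, adjusted p = 0.0513). All 4 tested members annotated ERF113 had estimates below 0, between -2.07 and -0.15, but they came from 1 assembly component and may share reads.

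In the AP2 subfamily 10 of 14 members were tested and 1 was called, in the higher direction (10%, beside 1.92% of all tested unigenes). At1g16060-like (c89054_g2_i5), matched to a relative of the fatty acid regulator WRINKLED1, had 3.17, 3.30 and 2.36 CPM in MaWRKY45-OE, against 0.876, 0.968 and 0.359 CPM in mock libraries. It was higher in every MaWRKY45-OE library (log2 fold change 1.96 ± 0.42 SE, adjusted p = 0.0260). ANT (c97690_g2_i7), matched to the organ growth regulator AINTEGUMENTA, had 4.04, 6.15 and 4.50 CPM in MaWRKY45-OE, against 1.68, 2.68 and 2.15 CPM in mock libraries. The groups did not overlap, but ANT lay just outside the threshold (log2 fold change 1.17 ± 0.32 SE, adjusted p = 0.0666). None of the floral APETALA 2-like or RAP2-7-like unigenes was called. The 2 RAV members did not pass the expression filter, and none of the 2 tested WIN/SHN members, the 1 tested ESR/PUCHI member and the 2 unplaced members was called.

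The calls depended on single libraries to different degrees. Among the 12 called members, 3 were called whichever library was left out, namely ERF1B-like (c85657_g1_i1), ERF12 and ERF1A-like. TINY-like lost its call only without mock replicate 1. ERF039 and the other ERF1B-like unigene (c87992_g3_i5) lost theirs without MaWRKY45-OE replicate 1 or mock replicate 1. DREB2A-like, ERF071 and At1g16060-like were not called without MaWRKY45-OE replicate 1 or 2 or mock replicate 1 or 3, and ERF1 was not called without MaWRKY45-OE replicate 1 or 2 or mock replicate 1. Without mock replicate 2, ERF1 kept an adjusted p of 0.0173 but its log2 fold change of 0.88 was under the 2-fold limit. CRF4-like was called in none of these fits and ERF13-like in 1. Without mock replicate 2, 5 members were higher and 14 lower. Calls gained in that fit included PTI5-like, ERF113-like (c97909_g12_i1, -2.40 ± 0.48 SE, adjusted p = 0.0132), ERF098-like (c111267_g1_i1, -2.25 ± 0.52 SE, adjusted p = 0.0254) and ANT (1.35 ± 0.35 SE, adjusted p = 0.0427). Also gained were ERF3-type (c86695_g1_i1, -1.39 ± 0.19 SE, adjusted p = 0.00202), ERF1B-like (c87844_g1_i2, -1.18 ± 0.23 SE, adjusted p = 0.0112) and ERF061-like (c86109_g2_i2, 2.87 ± 0.76 SE, adjusted p = 0.0462). The rest were the ERF5-like unigenes c95442_g7_i2 (-1.36 ± 0.28 SE, adjusted p = 0.0143) and c93781_g3_i1 (-1.46 ± 0.39 SE, adjusted p = 0.0483). Shares called over all tested unigenes moved too, from 4.59% with all 6 libraries (13.2% of members) to 6.62% in that fit (19.4%). They were 6.86% without MaWRKY45-OE replicate 3 (12.6%) and 3.10% without mock replicate 3 (7.14%). Fits without MaWRKY45-OE replicate 1, MaWRKY45-OE replicate 2 or mock replicate 1 called 2.14% (4.21%), 1.97% (6.32%) and 1.72% (3.13%).

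**Figure D5:**
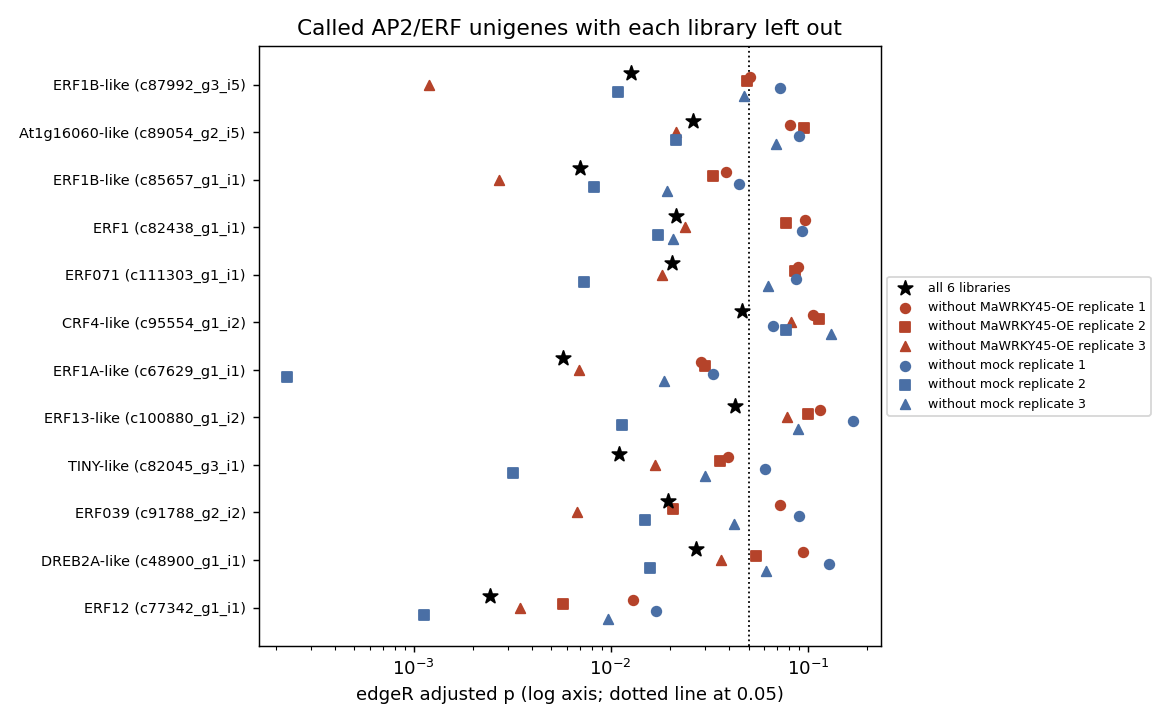
edgeR adjusted p (horizontal log axis, dotted line at 0.05) of the 12 called members with all 6 libraries (stars) and with each library left out (coloured symbols). ERF12, ERF1A-like and ERF1B-like (c85657_g1_i1) stay left of the line in every fit, while all 6 coloured symbols of CRF4-like lie right of it.

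Genes of ethylene synthesis, perception and signalling act upstream of many ERF genes. By name, 92 unigenes were listed for them, 48 of them tested. The list also took unigenes named ACC oxidase homologs, whose part in ethylene synthesis was not tested, so its counts are not of ethylene genes alone. In MaWRKY45-OE, 1 of the 48 was higher and 3 were lower, with a median log2 fold change of 0.08. These were 2.08% higher and 6.25% lower, beside 1.92% and 2.67% of all tested unigenes, so the higher share was near that of all unigenes. The ACC oxidase 5-like unigene (c56793_g1_i1), annotated with the last enzyme of ethylene synthesis, had 18.6, 25.7 and 7.01 CPM in MaWRKY45-OE, against 3.50, 4.62 and 5.57 CPM in mock libraries. It was higher without overlap (log2 fold change 1.91 ± 0.42 SE, adjusted p = 0.0287). The ACC synthase-like unigene (c6618_g1_i1), annotated with the enzyme before it, had 22.1, 26.5 and 28.8 CPM in MaWRKY45-OE, against 58.3, 41.1 and 78.1 CPM in mock libraries. It was lower without overlap (log2 fold change -1.19 ± 0.24 SE, adjusted p = 0.0202). The most abundant unigenes of both names were not called and had estimates of the opposite sign. ACC oxidase c93214_g3_i4 had 1204, 1260 and 1144 CPM in MaWRKY45-OE, against 2181, 1020 and 2600 CPM in mock libraries (-0.69 ± 0.33 SE). ACC synthase-like c99199_g1_i3 had 139, 173 and 88.7 CPM in MaWRKY45-OE, against 71.3, 80.5 and 125 CPM in mock libraries (0.54 ± 0.28 SE). Both ACC oxidase homolog unigenes that were lower came from 1 component (c94594_g2_i1, -1.72 ± 0.40 SE, and c94594_g7_i1, -1.29 ± 0.25 SE). All 4 calls were lost when MaWRKY45-OE replicate 1 or 2 or mock replicate 1 or 3 was left out. No tested receptor (4), CTR1 (6), EIN2 (1), EIN3/EIL (7) or EBF (5) unigene was called.

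Unigenes named like kinds that ERF and DREB proteins are known to act on were counted, without a check of their promoters. The names took acidic as well as basic endochitinases, so not every unigene counted need be a target. The GCC-box list held 35 osmotin, endochitinase, basic glucanase, PR-4 and defensin unigenes. Of these, 22 were tested, 3 were higher and 3 were lower (13.6% each, beside 1.92% and 2.67% of all tested unigenes). Among them a defensin-like protein 19 unigene (c84264_g2_i1) had 24, 90 and 19 counts in MaWRKY45-OE and none in any mock library. Taking 3 counts over the mock group as the floor, the level in MaWRKY45-OE was higher by at least 42.1-fold, and the call was lost without mock replicate 1. The other higher ones were an acidic endochitinase (c77563_g3_i2, 2.45 ± 0.57 SE) and a basic vacuolar glucanase (c95792_g1_i1, 2.29 ± 0.56 SE), which both lost their calls unless the library set aside was MaWRKY45-OE replicate 3. Both were low, with 5, 4 and 1 counts and 7, 5 and 9 counts in mock libraries. Of 8 tested endochitinases, 4 estimates were above 0 and 4 below. The most abundant, acidic endochitinase Q (c120701_g1_i1), had 8079, 7027 and 5173 CPM in MaWRKY45-OE, against 10620, 6434 and 12603 CPM in mock libraries, and was not called (-0.55 ± 0.35 SE). The 3 lower ones were also defensins, at log2 fold changes between -3.89 and -1.43. Of these, c78801_g4_i1 was called whichever library was left out, c97191_g2_i1 lost its call without MaWRKY45-OE replicate 1 or mock replicate 1, and c147977_g1_i1 without MaWRKY45-OE replicate 1 or 2 or mock replicate 1. Of 29 late embryogenesis, cold-regulated, TAS14, dehydrin and galactinol synthase unigenes of the dehydration-responsive kind, 15 were tested, none was higher and 2 were lower (13.3%, beside 2.67% of all tested unigenes). Estimates were below 0 for 13 of these 15 (86.7%), beside 51.1% of all tested unigenes, and the median was -0.47. Both lower ones were TAS14-like, known as stress proteins induced by abscisic acid, with estimates of -4.12 ± 0.67 SE (c108066_g1_i1) and -4.07 ± 0.52 SE (c137410_g1_i1). Both kept their calls with every library left out.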

How the data were processed

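RNA was sequenced by the authors as stranded mRNA libraries, trimmed with Trimmomatic, assembled de novo with Trinity and mapped back with Bowtie2; no reference genome was used here. The authors deposited counts of read pairs per unigene, expected counts (equal to the counts in all 6 libraries), TPM and FPKM values; only the counts were tested. Deposited annotations gave names, domains and species; unigenes of 1 component may be copies that share reads. Counts were tested with edgeR 4.0.16 (filterByExpr, TMM, quasi-likelihood F test, no covariate, 3 MaWRKY45-OE against 3 mock libraries, Benjamini-Hochberg adjustment over all tested unigenes; calls needed an adjusted p under 0.05 and at least 2-fold difference). Each standard error (SE) of a log2 fold change was derived from the test, as its absolute value divided by the square root of the F statistic. Libraries came from separate pools of plants. The scripts were first tested on simulated data. Alternatives were DESeq2 1.42.0, limma-voom (limma 3.58.1), other filters and scalings, a replicate block and each library left out. Members and lists were chosen with earlier results of these data known. Subgroups follow annotated names alone. Named were all called members, the 5 highest per kb, the 2 nearest each side of the threshold, members called by DESeq2 or limma-voom only, and called ethylene unigenes. Chosen after their values were seen were c87844_g1_i2, c76972_g2_i1, c82045_g2_i2, c87641_g1_i1, c66846_g2_i1, c111267_g1_i1, c86695_g1_i1, c86109_g2_i2, c93781_g3_i1, c93214_g3_i4, c99199_g1_i3 and the named unigenes of the GCC-box and dehydration lists.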

Additional observations from a re-analysis of the deposited data

How the results depend on the processing

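The 4 higher and 8 lower members became 0 and 2 with edgeR's glmTreat test against a 2-fold change (which asks for a change beyond 2-fold) and 9 and 14 without the expression filter, when 132 members were tested. With each library left out, 1 to 5 members were higher and 2 to 14 lower. DESeq2 called 4 higher and 10 lower, the 2 added ones being ERF5-like (c95442_g7_i2) and ERF113-like (c97909_g12_i1), and limma-voom called 4 and 6. With scaling by library size alone the medians were 0.11 on the log2 scale for all unigenes and -0.10 for members. In that fit 5 members were higher and 6 lower (12.1%, beside 4.52% of all unigenes). Samples with the same replicate number did not deviate together (correlations -0.112, -0.131 and -0.0926). Pairs with different numbers had correlations between -0.132 and 0.250. The positive ones were MaWRKY45-OE replicate 1 with mock 2 (0.192), 2 with 3 (0.250) and 3 with 1 (0.163), and a block by those pairs was not run. With a block by replicate number 4 were higher and 6 lower, CRF4-like and ERF13-like losing their calls. Leaving out yeast- and E. coli-matched unigenes, an alternative chosen after seeing the data, left 4 and 8 (13.2%, beside 4.15% of all unigenes). It dropped only those unigenes, and any effect of the organisms on the members was not tested. None of the 19 members named by rule changed sign under any alternative run. The tested unigenes c93214_g3_i4, c99199_g1_i3, c86695_g1_i1, c86109_g2_i2, c93781_g3_i1 and c120701_g1_i1 were not followed. Of the other tested unigenes named, ERF1B-like c76972_g2_i1 changed sign. Its estimates ranged between -0.23 and 0.050 with a library left out (0.050 without mock replicate 1). Of 91 tested members, 44 averaged under 5 CPM, and 6 of the 8 lower and 1 of the 4 higher members were among them.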
